A study of Homo sapiens with 4 samples.

Results

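The 10 genes described here, CD44, CD24, ALDH1A1, ALDH1A3, PROM1, EPCAM, KLF4, MYC, SOX2 and SOX9, are markers and transcription factors that are commonly used to describe breast cancer stem cells. They were chosen by name, and each matched 1 of the 58735 Ensembl genes in the count table. MDA-MB-231 and SUM159 are established human triple-negative breast cancer (TNBC) cell lines. Mebendazole (MBZ) is an anthelmintic that binds tubulin, and DMSO is the solvent in which it was added. RNA was sequenced from MDA-MB-231 cells with DMSO (0 μM MBZ), MDA-MB-231 cells with 1 μM MBZ, SUM159 cells with DMSO and SUM159 cells with 1 μM MBZ, all after 72 h and with 1 library each. The labels name no other agent or genetic change for any group, and each line is a single model of the disease. The study asked whether MBZ lowers stemness in these cells. It followed stemness by mammosphere formation and by limiting dilution in mice, both with MDA-MB-231 cells. In both lines it also stained surface CD44 and CD24 among cells positive for integrin β4 (ITGB4). The transcripts of CD44, CD24 and related markers are given here for each library.

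Breast cancer stem cells are tumor cells that can self-renew and start new tumors. In breast cancer they are classically recognised by high CD44 with low CD24 at the cell surface, or by high aldehyde dehydrogenase (ALDH) activity. CD44 is the receptor for hyaluronan, a sugar polymer of the matrix, and CD24 is a small, heavily glycosylated protein anchored to the membrane by lipid. ALDH1A1 and ALDH1A3 are enzymes that make retinoic acid from retinaldehyde. PROM1 (CD133) and EPCAM are surface proteins of progenitor and epithelial cells, and EPCAM is an adhesion molecule. KLF4, MYC and SOX2 are among the factors used to reprogram mature cells to pluripotency, and SOX9 is a transcription factor of mammary progenitors and of cartilage. Basal-like and mesenchymal TNBC lines are known for a CD44-high, CD24-low surface.

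The libraries held between 17143139 and 24897586 counts, and scaling factors by the trimmed mean of M-values (TMM) over the 4 libraries were between 0.885 and 1.11. CPM stands for counts relative to the size of the scaled library and is the unit of all levels. A library in which a gene has 0 counts allows up to 3 counts, or between 0.129 and 0.181 CPM. Without the TMM factors, the middle gene of all those compared would have changed, on the log2 scale, by 0.247 (MDA-MB-231) and 0.267 (SUM159), against -0.00068 and -0.034 with them, and changes below are relative to that median. With 1 library per condition, a change within a line has no replicate check, and its error is a 95% counting interval, computed from both read counts, that holds no error other than that of counting. Counting intervals are narrow for abundant genes, and among all genes compared 65.8% in MDA-MB-231 and 68.5% in SUM159 had one that left out 0. Markers of the line labels were checked at the level of RNA only. PGR was at 0 counts in all 4 libraries and ESR1 at no more than 18, whereas ERBB2 had between 59.0 and 110.2 CPM. The triple-negative label is set by protein staining, which these RNA levels do not measure. The mesenchymal marker VIM was at 1089 CPM or more in every library, and CDH1, the main epithelial cadherin, had 11 and 12 counts in MDA-MB-231 and none in SUM159.

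The 10 genes covered the whole range from absent to abundant. Levels of different genes were compared per kb of exons, because longer transcripts give more reads. The length used was that of all annotated exons of a gene. For CD44 it was 9992 bases, against 5431 in the canonical transcript, and for SOX9 3931 by both. The place of CD44 therefore depends on the length used. In MDA-MB-231 with DMSO, CD44 was above SOX9 in CPM, at 390.2 against 206.1. Per kb, SOX9 was the highest of the 10 there, at 52.4 CPM per kb, followed by CD44 at 39.1, MYC at 19.9, KLF4 at 10.4, CD24 at 4.07 and EPCAM at 2.55 CPM per kb. SOX2 at 0.599 and ALDH1A3 at 0.556 CPM per kb came next and had overlapping counting intervals. In SUM159 with DMSO the order was CD44 at 122.3, MYC at 69.0, CD24 at 37.1, KLF4 at 5.21 and ALDH1A3 at 1.65 CPM per kb. SOX9, SOX2 and EPCAM were next in SUM159, at 0.246, 0.216 and 0.149 CPM per kb, and these 3 were not separated by their counting intervals. PROM1 had 1, 5, 2 and 1 counts and ALDH1A1 0, 0, 1 and 1 counts, in MDA-MB-231 with DMSO and MBZ and SUM159 with DMSO and MBZ. ALDH1A1 was therefore at or under the 3-count limit in every library, and PROM1 was above it in MDA-MB-231 with MBZ alone.

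With MBZ the order at the top of the MDA-MB-231 list was different. KLF4 was the highest there, at 60.4 CPM per kb, a level above 96.4% of the 15910 genes that averaged 10 counts or more over the libraries. CD44 at 39.1, MYC at 31.6 and SOX9 at 25.6 CPM per kb followed. In SUM159 with MBZ, CD44 at 90.1 and MYC at 57.2 CPM per kb kept the first 2 places. KLF4 was next at 10.4, then ALDH1A3 at 4.30 (counting interval 3.92 to 4.70) and CD24 at 3.68 CPM per kb (3.22 to 4.18), whose intervals overlapped.

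**Figure D1:**
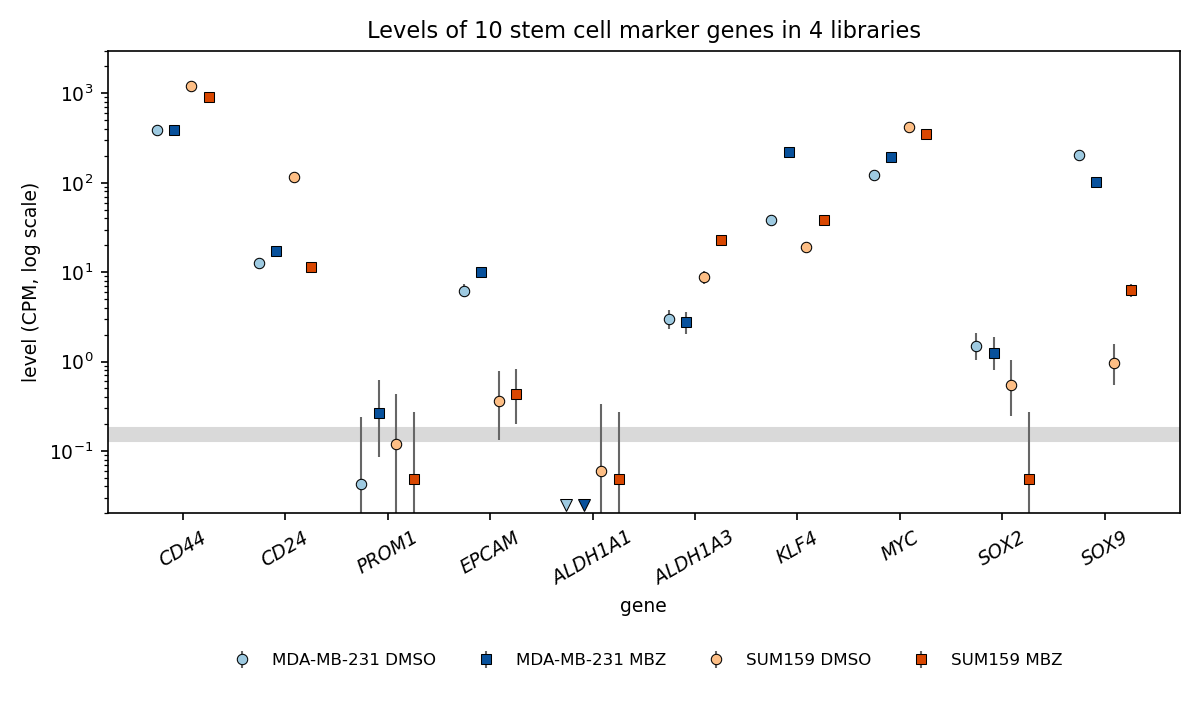
Levels in CPM on a log axis for the 10 genes, with 1 point per library and bars for the 95% exact Poisson counting interval. The grey band is the level of 3 counts, triangles mark 0 counts, and ALDH1A1 lies under the band in all 4 libraries while CD44 lies between 390.2 and 1222 CPM.

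The levels of several markers differed between the lines. The comparison used the quasi-likelihood test of edgeR with terms for line and for treatment, so that the DMSO and MBZ libraries of a line stand in for replicates. Each gene has 1 residual degree of freedom, and its spread is estimated with help from all other genes tested. The p-values therefore do not measure the spread between replicate cultures. Of the 8 genes that passed the count filter, 6 differed between the lines at an adjusted p (Benjamini-Hochberg) under 0.05, against 21.5% of the 16100 genes tested (11.6% higher and 9.85% lower in SUM159), of which 35.7% had an unadjusted p under 0.05. CD44, ALDH1A3 and MYC were higher in SUM159, and EPCAM, SOX9 and KLF4 were higher in MDA-MB-231.

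SOX9 had 206.1 and 100.8 CPM in MDA-MB-231 with DMSO and MBZ and 0.966 and 6.26 CPM in SUM159. Both MDA-MB-231 libraries lay above both SUM159 libraries, but the share of all genes separated in this way is not given here. The log2 difference of SUM159 over MDA-MB-231 for SOX9 was -5.62 (SE 0.915, edgeR adjusted p = 0.0077). EPCAM was at 6.20 and 9.99 CPM in MDA-MB-231 and at 0.362 and 0.436 CPM in SUM159. Its log2 difference was -4.25 (SE 0.636, edgeR adjusted p = 0.00562). As its SUM159 counts were 6 and 9, EPCAM passed the count filter through MDA-MB-231 alone, where it was high, so its call and its place in the count of 6 carry little weight. KLF4 was lower in SUM159 by a log2 difference of -1.72 (SE 0.422, edgeR adjusted p = 0.0299), but its lowest MDA-MB-231 level, 38.1 CPM, and its highest SUM159 level, 38.3 CPM, were alike, and the adjusted p was 0.0966 when treatment was left out of the model. Of the 3 genes that were higher in SUM159, ALDH1A3 had a log2 difference of 2.36 (SE 0.546, edgeR adjusted p = 0.0247). For CD44 the difference was 1.47 (SE 0.385, adjusted p = 0.0369) and for MYC 1.37 (SE 0.364, adjusted p = 0.0385). The CD24 difference of 1.36 (SE 0.910, edgeR adjusted p = 0.334) and the SOX2 difference of -2.49 (SE 0.949, adjusted p = 0.109) missed the threshold. Like EPCAM, SOX2 passed the count filter through MDA-MB-231 alone, as its SUM159 counts were 9 and 1.

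Within the lines, a gene was called at a fold change of at least 1.5 if its 2 libraries averaged 10 counts or more. For MDA-MB-231 this left 8 genes to compare, and KLF4, EPCAM and MYC were called higher with MBZ, SOX9 was called lower and 4 were called neither. Among all 15142 genes compared in that line, 18.8% were called higher and 15.1% lower, or 33.9% in all. For SUM159 it left 6, and SOX9, ALDH1A3 and KLF4 were called higher, CD24 was called lower and 2 were called neither. There the background was 21.5% higher and 21.7% lower among 15674 genes, or 43.2% in all. Without the TMM factors, called genes split into 79.4% higher in MDA-MB-231 and 71.9% higher in SUM159, against 55.5% and 49.8% with them. The median log2 fold change of the genes compared was 0.230 over the 8 in MDA-MB-231 and 0.367 over the 6 in SUM159. The markers called in a line were thus not all called in 1 direction.

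**Figure D2:**
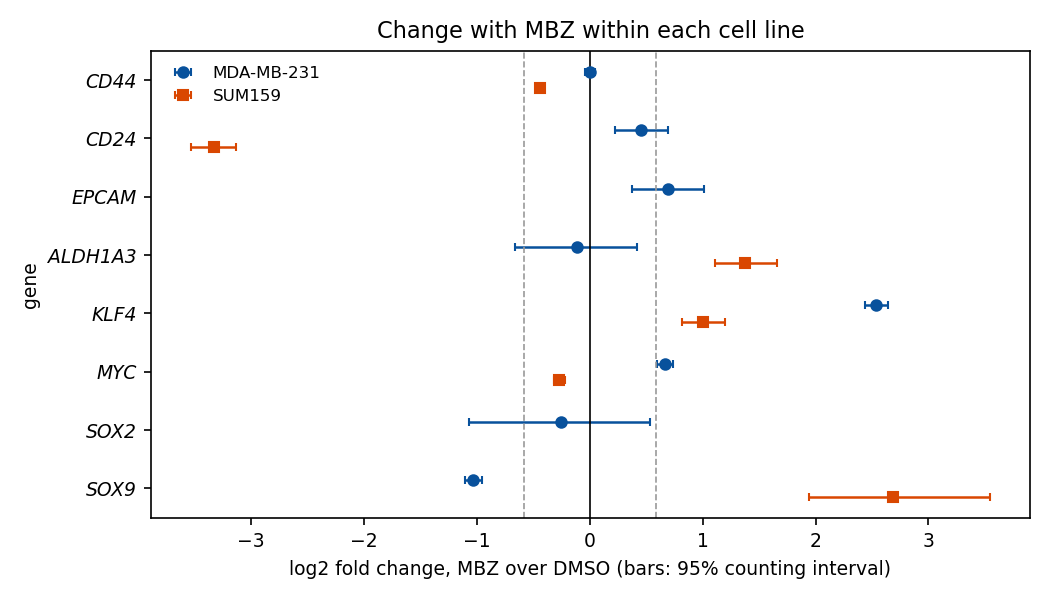
Log2 fold change of MBZ over DMSO for the genes that averaged 10 counts or more in a line, with bars for the 95% counting interval and dashed lines at a fold change of 1.5. KLF4 lies to the right in both lines, at 2.54 and 1.00, while SOX9 lies at -1.03 in MDA-MB-231 and 2.69 in SUM159.

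KLF4 (ENSG00000136826, chromosome 9 from 107484852 to 107490482 of GRCh38, minus strand, 5 exons in its canonical transcript), a zinc finger factor of epithelial differentiation and pluripotency, was the 1 marker called higher in both lines. In MDA-MB-231 it had 885 counts with DMSO and 4207 with MBZ, and in SUM159 it had 316 and 789. In CPM this was 38.1 to 221.3 and 19.1 to 38.3, so each MBZ library was above the DMSO library of its line. MBZ over DMSO gave a fold change of 5.81 in MDA-MB-231 (counting interval 5.40 to 6.26) and 2.0 in SUM159 (1.76 to 2.29). It ranked 183 from the highest among 15142 genes in MDA-MB-231 and 1987 from the highest among 15674 in SUM159. Of the 13733 genes that could be compared in both lines, 6.25% were called higher in both and 4.49% lower in both. Exons of KLF4 share 357 bases, or 9.75% of its exon length, with an antisense lncRNA.

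Because KLF4, CD24 and ALDH1A3 gave large changes within a line, the 250 bases before their RefSeq starts (GRCh38.p14) are shown where each gene is described. Entries for 7 of the 10 genes were matched in the promoter table, and those of EPCAM, MYC and SOX9 were not. Capitals mark matches on either strand to the TATA box (TATAAA), the CCAAT box (CCAAT), the GC box (GGGCGG), the E-box (CACGTG) bound by MYC with MAX, or the AP-1 site (TGANTCA). Of 35116 promoter windows of the same length, 10.7% held a TATA box match, 32.0% a CCAAT match, 42.6% a GC box match, 6.34% an E-box match and 6.57% an AP-1 match. The KLF4 window, chr9:107489770-107490019 on the minus strand, lies inside the GENCODE span of the gene and is 69.2% G and C, against a median of 58.0% over all windows. It held 4 GC box matches and 1 E-box match, the latter starting 157 bases before the start. A match describes the letters and does not show that a factor binds.
KLF4: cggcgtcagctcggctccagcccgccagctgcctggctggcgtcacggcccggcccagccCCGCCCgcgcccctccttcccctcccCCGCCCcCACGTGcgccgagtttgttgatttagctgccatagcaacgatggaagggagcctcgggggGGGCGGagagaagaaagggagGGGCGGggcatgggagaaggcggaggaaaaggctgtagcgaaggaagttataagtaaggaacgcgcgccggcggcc

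High surface CD44 with low CD24 defines the classical stem cell phenotype. CD44 was called in neither line, and CD24 was called lower in SUM159. CD44 (ENSG00000026508, chromosome 11 from 35138882 to 35232402, plus strand, 18 exons) had 9069 and 7435 counts in MDA-MB-231 with DMSO and MBZ, or 390.2 and 391.1 CPM. These levels were almost equal, and MBZ over DMSO was 0.0035 on the log2 scale (counting interval -0.041 to 0.048). In SUM159 CD44 had 20239 and 18568 counts, or 1222 and 900.3 CPM, and was thus lower with MBZ. The log2 fold change of -0.44 (counting interval -0.47 to -0.41) was short of the 1.5-fold call, and it was -0.14 without the TMM factors. All 4 libraries placed CD44 above 92.4% to 98.1% of genes per kb.

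CD24 (ENSG00000272398, chromosome 6 from 106969831 to 106975627, minus strand, 2 exons) gave the largest fold change among the markers that could be compared. Its counting interval overlapped that of SOX9 in SUM159, 3.84 to 11.7-fold, so CD24 and SOX9 are not separated in size of change. CD24 went from 1900 counts with DMSO to 235 with MBZ in SUM159, or from 114.7 to 11.4 CPM. The DMSO library of SUM159 stood apart from the other 3, since MDA-MB-231 had 293 and 329 counts, or 12.6 and 17.3 CPM. With MBZ, CD24 was 10.1-fold lower in SUM159 (counting interval 8.79 to 11.6), at rank 87 from the lowest of 15674 genes. In MDA-MB-231 its log2 fold change was 0.46 (counting interval 0.23 to 0.69), short of the 1.5-fold call, and 0.71, past it, without the TMM factors. In bulk RNA, fewer CD24-positive cells and less CD24 RNA per cell cannot be told apart. CD24 has near-identical copies elsewhere in the genome, of which 3, CD24P1, CD24P2 and CD24P5, had 0 or 1 count in each library, and reads shared with such copies make its level uncertain.

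CD24 is also carried by blood cells, so a list of blood cell markers is given beside it. The summed level of the 6 markers was 42.1 CPM in SUM159 with DMSO and 8.39 CPM with MBZ, and 2.62 and 3.52 CPM in MDA-MB-231. It moved with CD24 in SUM159, through CD14, with 477 and 110 counts, and PTPRC, with 216 and 60 counts. The lineage markers CD3E and HBB had no more than 2 counts and CD68 no more than 3 in any library. Their part in the CD24 difference was not tested.

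The window before the first RefSeq start of CD24, chr6:106975628-106975877 on the minus strand, is 65.6% G and C. It held 1 GC box match and none of the other motifs.
CD24: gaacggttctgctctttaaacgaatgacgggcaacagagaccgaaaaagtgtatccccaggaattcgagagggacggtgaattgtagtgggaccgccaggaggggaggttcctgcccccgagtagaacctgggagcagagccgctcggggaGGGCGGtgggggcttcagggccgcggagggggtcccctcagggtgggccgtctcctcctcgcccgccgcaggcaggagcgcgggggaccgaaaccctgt

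The ratio of CD44 to CD24 within a library does not depend on the scaling between libraries. Its size depends on the exon lengths used, but its order among the libraries does not. Per kb of exons, it was 9.59 in MDA-MB-231 with DMSO (counting interval 8.54 to 10.8) and 7.002 with MBZ (6.27 to 7.84). In SUM159 it was 3.30 with DMSO (3.15 to 3.46) and 24.5 with MBZ (21.5 to 28.0). The ratio was thus lower with MBZ in MDA-MB-231 and higher with MBZ in SUM159, and the 4 intervals did not overlap. These are ratios of transcripts over all cells of a library and not shares of cells with a CD44-high, CD24-low surface.

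**Figure D3:**
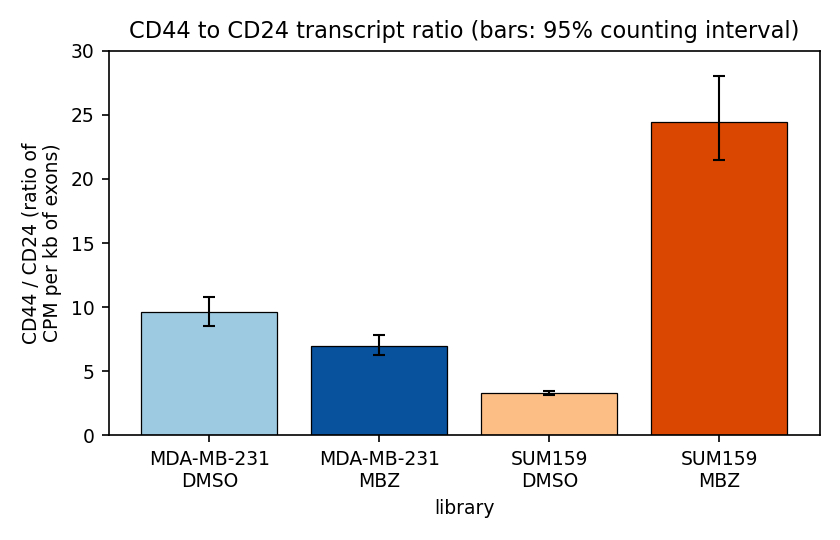
Ratio of CD44 to CD24, each in CPM per kb of exons, in the 4 libraries, with bars for the 95% counting interval. The ratio lies between 3.30 and 9.59 in 3 libraries and at 24.5 in SUM159 with MBZ.

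The SOX factors are DNA-binding proteins of embryonic and adult progenitors. SOX9 (ENSG00000125398, chromosome 17 from 72121020 to 72126416, plus strand, 3 exons) was called in opposite directions in the lines. MDA-MB-231 had 4790 counts with DMSO and 1916 with MBZ, and SUM159 had 16 and 129. Both MDA-MB-231 libraries were far above the SUM159 libraries, and SUM159 with DMSO had the lowest count. With MBZ, SOX9 was 2.04-fold lower in MDA-MB-231 (counting interval 1.94 to 2.16) and 6.44-fold higher in SUM159 (3.84 to 11.7). The SUM159 level with MBZ, 6.26 CPM, remained below the lowest MDA-MB-231 level, 100.8 CPM. SOX2 (ENSG00000181449, chromosome 3 from 181711925 to 181714436, plus strand, 1 exon) had 35 and 24 counts in MDA-MB-231 and 9 and 1 counts in SUM159. At these counts its log2 fold change in MDA-MB-231, -0.25, had a counting interval of -1.07 to 0.54. The SUM159 counts were too few for the comparison, with a fold change of 0.0997 (counting interval 0.00204 to 0.644).

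ALDH1A3 was above the 3-count limit in every library and ALDH1A1 in none. The remaining ALDH1A enzyme, ALDH1A2, which was added after its values were seen, had 5 and 11 counts in MDA-MB-231 and 0 and 16 in SUM159. ALDH1A1 (ENSG00000165092, chromosome 9 from 72900671 to 73080442, minus strand, 13 exons) was at 0 or 1 count throughout, with upper 95% counting limits between 0.159 and 0.336 CPM, and gave no fold change. ALDH1A3 (ENSG00000184254, chromosome 15 from 100877714 to 100916626, plus strand, 13 exons) was detected in all 4, with 69 and 52 counts in MDA-MB-231 and 146 and 473 counts in SUM159. SUM159 with MBZ was highest, at 22.9 CPM, and both MDA-MB-231 libraries were below 3 CPM. In SUM159 ALDH1A3 was 2.60-fold higher with MBZ (counting interval 2.16 to 3.15), whereas in MDA-MB-231 its log2 fold change was -0.12 (counting interval -0.67 to 0.42). Exons of ALDH1A3 share 1715 bases, or 32.2% of its exon length, with the antisense lncRNA ALDH1A3-AS1, and the strand setting of the counting was not given in the sources used here, so reads of the 2 genes may not be separated.

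The ALDH1A3 window, chr15:100879581-100879830 on the plus strand, lies inside the GENCODE span of the gene and is 82.4% G and C. It held 6 GC box matches, a pair of which share 1 base, and 1 CCAAT match that starts 71 bases before the start.
ALDH1A3: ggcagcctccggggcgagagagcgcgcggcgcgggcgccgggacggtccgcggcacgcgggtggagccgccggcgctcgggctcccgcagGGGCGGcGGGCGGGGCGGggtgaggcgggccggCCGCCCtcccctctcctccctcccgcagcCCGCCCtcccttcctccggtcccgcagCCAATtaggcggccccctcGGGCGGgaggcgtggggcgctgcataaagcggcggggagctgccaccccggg

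EPCAM (ENSG00000119888, chromosome 2 from 47345158 to 47387601, plus strand, 9 exons) had 144 and 190 counts in MDA-MB-231 and 6 and 9 counts in SUM159. It was 1.61-fold higher with MBZ in MDA-MB-231 (counting interval 1.29 to 2.02), close to the limit for a call. In SUM159 its fold change of 1.2 had a counting interval of 0.383 to 4.11 and was not compared. PROM1 (ENSG00000007062, chromosome 4 from 15963076 to 16084378, minus strand, 28 exons), the gene of a pentaspan membrane protein, was too low for a comparison in either line. Its 1 and 5 counts in MDA-MB-231 give a fold change of 5.46 with a counting interval of 0.684 to 289.

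MYC (ENSG00000136997, chromosome 8, 3 exons), a driver of growth and ribosome production, was abundant in all libraries. It had 2823 and 3665 counts in MDA-MB-231 and 6980 and 7211 counts in SUM159, or 121.5, 192.8, 421.4 and 349.6 CPM. Both SUM159 libraries were above both MDA-MB-231 libraries, a separation for which the share of all genes is not given. With MBZ it was 1.59-fold higher in MDA-MB-231 (counting interval 1.51 to 1.67), close to the limit for a call. In SUM159 its log2 fold change was -0.27 (counting interval -0.32 to -0.22), but 0.032 without the TMM factors, so its direction there depends on the scaling.

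A change alike in both lines was tested with the same edgeR quasi-likelihood model, with the 2 lines taking the place of replicates. None of the 8 genes tested had an adjusted p under 0.05, and 1 gene, KLF4, had an unadjusted p under 0.05. Among all 16100 genes, 0.00621% passed for a higher level and 0% for a lower one, and 1150 genes, or 7.14%, had an unadjusted p under 0.05. DESeq2's Wald test also called none of the 7 markers to which it gave an adjusted p, with 1 at an unadjusted p under 0.05, while it called 41 higher and 55 lower genes in all. KLF4 had a shared log2 fold change of 1.81 (SE 0.423, edgeR adjusted p = 0.471) and was higher with MBZ in both lines. Its adjusted p was 0.000496 when every gene with at least 1 count was tested, 0.0668 with DESeq2 and 1.00 without cell line in the model. The other 7 genes had edgeR adjusted p-values between 0.785 for CD24 and 0.938 for CD44.

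The difference between the lines in their response has no residual degrees of freedom and was not tested. As a description with counting error only, the log2 change in SUM159 minus that in MDA-MB-231 was 3.72 for SOX9 (95% interval 2.96 to 4.47) and -3.79 for CD24 (-4.09 to -3.49). It was 1.497 for ALDH1A3 (0.91 to 2.08), -1.53 for KLF4 (-1.75 to -1.32), -0.94 for MYC (-1.02 to -0.85) and -0.44 for CD44 (-0.50 to -0.39). Of the 13733 genes compared in both lines, 6.07% were called in opposite directions, as was SOX9. Counting intervals lay on opposite sides of 0 for 20% of these genes, and for 3 of the 6 markers, SOX9, CD24 and MYC.

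**Figure D4:**
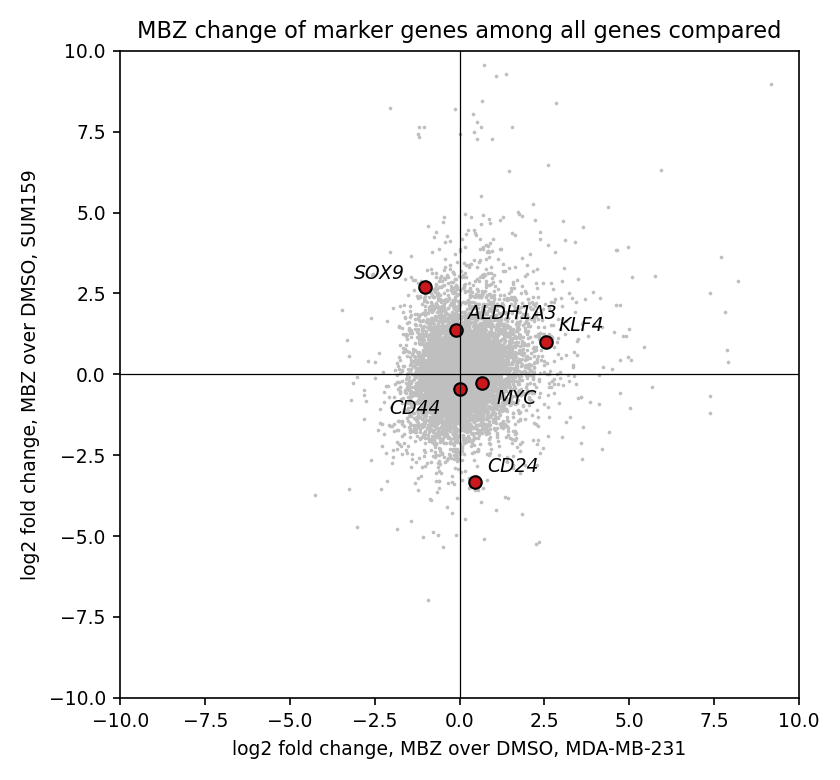
Log2 fold change of MBZ over DMSO in MDA-MB-231 (x axis) and SUM159 (y axis) for the 13733 genes compared in both lines (grey) and the 6 markers among them (red). KLF4 is in the upper right, SOX9 in the upper left at -1.03 and 2.69, and CD24 at the bottom, at 0.46 and -3.33.

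Genes that act with the markers were described by 10 lists of 154 different genes in all, by the same 1.5-fold call. Their counts stand against the shares of all genes compared, 18.8% higher and 15.1% lower in MDA-MB-231 and 21.5% higher and 21.7% lower in SUM159, and no list was tested as a whole. None of their genes passed the edgeR test for a shared change at an adjusted p under 0.05. Of 17 other ALDH genes, 1 was higher, 5 lower and 8 neither of 14 compared in MDA-MB-231, and 2 were higher, 7 lower and 6 neither of 15 in SUM159. Without the TMM factors these were 2 higher and 3 lower, and 2 higher and 6 lower. Their median log2 fold change was -0.33 and -0.57, against -0.00068 and -0.034 for all genes compared, and it was -0.086 and -0.27 without the TMM factors. ALDH3A1, which detoxifies aldehydes, had 1000 and 431 counts with DMSO and MBZ in MDA-MB-231 and 113 and 1 in SUM159, the latter -6.96 on the log2 scale (counting interval -12.4 to -4.63). ALDH3A2, which oxidises fatty aldehydes, had 4804 and 2306 counts in MDA-MB-231 and 2562 and 792 in SUM159, log2 fold changes of -0.77 and -2.01. ALDH3A1 and ALDH3A2 were thus called lower in both lines, whereas ALDH1A3 was called higher in SUM159 and not called in MDA-MB-231. Of 16 genes of retinoic acid signalling, 1 was higher and 3 lower of 9 compared in MDA-MB-231 and 3 higher and 3 lower of 11 in SUM159. Without the TMM factors the split was 1 higher and 1 lower, and 6 higher and 1 lower, so the even split in SUM159 depends on the scaling. The median log2 fold change was -0.46 and 0.49, and -0.22 and 0.79 without the factors. RDH10, which supplies retinaldehyde, had log2 fold changes of 0.98 and 0.94, and the receptor RXRA -0.86 and -1.07. TGM2, a transglutaminase that retinoic acid can induce and the most abundant gene of the list, was at -0.48 and 0.26.

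Of 17 hyaluronan and CD44 partner genes, 3 were higher and 3 lower of 14 compared in MDA-MB-231 and 4 higher and 3 lower of 13 in SUM159. The median log2 fold change was 0.030 and -0.0055, and 0.28 and 0.29 without the TMM factors, when 4 were higher and 0 lower in the former and 5 higher and 2 lower in the latter. HAS3, a hyaluronan synthase, had 35 and 75 counts in MDA-MB-231 and 97 and 218 in SUM159, or 1.39 and 0.85 on the log2 scale. MSN, the gene of moesin, which ties CD44 to actin, had -0.76 and 0.31. Of 12 epithelial partners of EPCAM, 8 could be compared in MDA-MB-231 and 3 in SUM159, with 0 higher and 1 lower in the former and 1 higher and 0 lower in the latter. The MDA-MB-231 count depends on the scaling, since without the TMM factors 5 were higher and 1 lower, and the median log2 fold change was 0.64 in place of 0.39. In SUM159 the median was 0.48, and 0.78 without them. OCLN, the gene of the tight junction protein occludin, had log2 fold changes of 0.58 and 0.48.

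Among the 13 other KLF genes, 4 were higher and 2 lower of 12 compared in MDA-MB-231 and 3 higher and 1 lower of 12 in SUM159. The median log2 fold change of the 12 was 0.094 in MDA-MB-231 and -0.16 in SUM159, and without the TMM factors it was 0.34 and 0.14, with 4 higher and 1 lower, and 3 higher and 0 lower. KLF6, an abundant member of the family, had log2 fold changes of 0.61 (counting interval 0.54 to 0.67) and 0.95 (0.86 to 1.04). Among the 17 other SOX genes, 1 was higher and 1 lower of 7 compared in MDA-MB-231 and 1 higher and 3 lower of 6 in SUM159, the latter 1 higher and 2 lower without the TMM factors. SOX4, a factor of progenitors and of epithelial-mesenchymal transition, had 4696 and 1890 counts with DMSO and MBZ in MDA-MB-231 and 3427 and 987 in SUM159. Its log2 fold changes were -1.02 (counting interval -1.10 to -0.95) and -2.11 (-2.22 to -2.01), lower in both lines, whereas SOX9 was lower in MDA-MB-231 alone. SOX12, of the same subgroup as SOX4, was at -0.39 and -0.92. SOX1, SOX3, SOX8, SOX11, SOX14 and SOX17 had no more than 2 counts in any library.

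Of 20 MYC target genes, MBZ left 3 higher and 4 lower in MDA-MB-231, where MYC was called higher, and 3 higher and 1 lower in SUM159, where MYC was not called. On total counts, without the factors, these were 3 higher and 1 lower, and 8 higher and 1 lower. Their median log2 fold change was -0.12 and 0.19, and 0.13 and 0.49 without the TMM factors. ODC1, the first enzyme of polyamine synthesis, was higher with MBZ in each line, by 1.22 (counting interval 1.16 to 1.29) and 1.85 (1.802 to 1.906) on the log2 scale. LDHA, lactate dehydrogenase A, was at -1.06 and 0.35. Of 13 MYC partners and antagonists, 1 was higher and 1 lower of 12 compared in MDA-MB-231 and 2 higher and 3 lower of 13 in SUM159. These counts were 3 higher and 1 lower, and 2 higher and 2 lower, without the TMM factors. MXD4, which competes with MYC for MAX, was at -0.066 and -1.31.

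**Figure D5:**
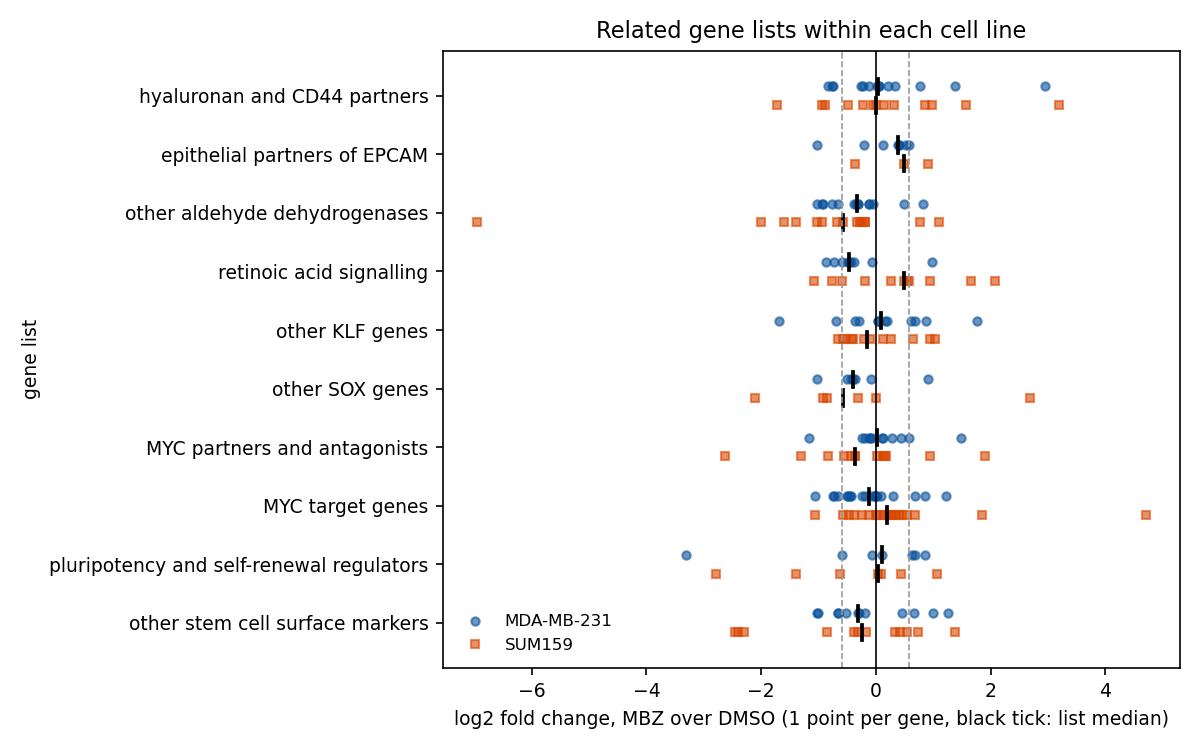
Log2 fold change of MBZ over DMSO for the genes of the 10 lists that could be compared, with 1 point per gene, black ticks at the list medians and dashed lines at a fold change of 1.5. The aldehyde dehydrogenases have medians of -0.33 and -0.57, and the retinoic acid list -0.46 in MDA-MB-231 and 0.49 in SUM159.

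Of 12 regulators of pluripotency and self-renewal, NANOG, LIN28A, LIN28B, ZFP42 and PRDM14 had no more than 3 counts in any library, and 7 could be compared in each line. In MDA-MB-231 3 were higher and 2 lower, and in SUM159 1 was higher and 3 lower. The split was 3 higher and 1 lower, and 2 higher and 2 lower, without the TMM factors. ID1, an inhibitor of differentiation factors, had 11537 and 952 counts in MDA-MB-231 and 1157 and 3020 in SUM159. Its log2 fold changes of -3.31 (counting interval -3.41 to -3.21) and 1.07 (0.97 to 1.17) had the same signs as those of SOX9. TP63, the p63 factor of basal epithelium, had 123 and 67 counts and then 2131 and 385 in the same order, giving -0.59 (counting interval -1.04 to -0.15) and -2.78 (-2.94 to -2.63). SUM159 with DMSO had the highest TP63 and the highest CD24 of the 4 libraries.

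Of 17 other surface markers of stem cells, 3 were higher and 4 lower of 12 compared in MDA-MB-231 and 2 higher and 4 lower of 12 in SUM159. The median log2 fold change was -0.31 and -0.24. Without the TMM factors it was -0.059 and 0.055, with 4 higher and 2 lower in MDA-MB-231 and 5 higher and 3 lower in SUM159. ABCG2, the drug exporter behind the side population assay, had 155 and 202 counts in MDA-MB-231 and 230 and 747 in SUM159. Its log2 fold changes were 0.67 (counting interval 0.36 to 0.98) and 1.38 (1.17 to 1.60). ITGB4, which the study used to gate its CD44 and CD24 staining, was lower with MBZ in each line (log2 fold changes -1.01 and -2.40), and ITGA6, its integrin partner, was at -0.67 and 0.33. CD151, a tetraspanin that binds these integrins, was at -1.02 and -0.18. ABCB5 and CXCR1 had no more than 3 counts in any library.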

How the data were processed

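RNA enriched for mRNA was sequenced as read pairs in 4 libraries, 1 per line and treatment. The authors used STAR 2.5 to map reads to GRCh38 and HTSeq 0.6.1, in its union mode, to count them per gene, and the deposited counts are raw. The annotation release and strand setting were not given in the sources used here. Samples were grouped by their labels. Gene positions, exon lengths and overlaps are from GENCODE 44 on GRCh38, and 58207 of 58735 identifiers matched a symbol.

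Counts were scaled with edgeR 4.0.16 (R 4.3.3) by TMM over the 4 libraries. Fold changes used a prior count of 0.125, a minimum average of 10 counts in the line and a threshold of 1.5, a fold named in the study's methods beside a stricter one of 2. Intervals are 95% Clopper-Pearson on the reads of 2 libraries, or exact Poisson for a level. No molecular identifiers are named for these amplified reads, which are then not independent molecules, so intervals cover counting error only. The shared and line tests were edgeR's quasi-likelihood test with filterByExpr and Benjamini-Hochberg adjustment. Their common BCV was 0.323. DESeq2 1.42.0 was an alternative, and adjusted p-values that it left out, for 2497 genes in the shared test, were not counted. Functions were tested on simulated counts. No p-value was computed within a line.

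The members and lists were chosen with earlier results of these data known. Named list genes are the first 2 of a list by mean CPM or by the smaller of the 2 changes among genes with the same sign in both lines, with TP63, ITGB4, ITGA6, undetected genes and markers, but not all are reported here.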

Additional observations from a re-analysis of the deposited data

Results flagged for a closer look

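SOX9, CD24 and MYC had fold changes of opposite sign in the lines, with counting intervals on opposite sides of 0. These are 3 of the 6 markers compared in both lines, against 20% of all 13733 genes so compared. By the 1.5-fold call SOX9 differed in both lines, CD24 missed it in MDA-MB-231 (0.46 on the log2 scale) and MYC missed it in SUM159 (-0.27). The log2 change in SUM159 minus that in MDA-MB-231 was 3.72 for SOX9, -3.79 for CD24 and -0.94 for MYC. Each rests on 1 library per condition, so the difference between the lines was not tested. For MYC the sign in SUM159 was the opposite, at 0.032, without the TMM factors. For SOX9 the SUM159 value rests on 16 counts with DMSO.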

How the results depend on the processing

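The calls of SOX9 in MDA-MB-231 and of CD24 and KLF4 in SUM159 held under the 8 alternatives run for each line, which were 3 other scalings, 2 other count limits, a fold of 2, a prior count of 2 and a call by the counting interval. At a fold of 2 the genes called higher in MDA-MB-231 went from 3 to 1, KLF4. In SUM159 the genes called lower went from 1 to 3 when no count minimum but 1 was set (CD24, PROM1 and SOX2) and also to 3 by the counting interval (CD24, CD44 and MYC). SOX9 was not compared in SUM159 at a mean of at least 100 counts. The shared test called 1 gene, KLF4, in place of 0 when every gene with at least 1 count was tested, and the cause was not tested. Without TMM factors the shared change of CD44 turned from -0.19 to 0.058, and without cell line in the model that of SOX9 turned from 0.58 to -0.93, both far from the threshold. Without TMM factors, the difference in CD44 change between the lines went from -0.44 to -0.39, and the list genes called lower in MDA-MB-231 went from 26 to 12 and those called higher in SUM159 from 22 to 36. These last alternatives for the lists and the line difference were chosen after seeing the data. The test between the lines called 5 to 7 of the markers under its 5 alternatives, and the count of 7 came with a count minimum of 1, where CD24 was added (adjusted p = 0.018). Testing every gene also took the genes called for a shared change from 1 to 153 higher and from 0 to 145 lower, DESeq2 called 41 and 55, total counts gave 3 and 0, and leaving out cell line gave 0 and 0.

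For a block by replicate number, no paired analysis was possible because each group has 1 library and the groups share 1 replicate number. The libraries of a line were paired instead by the line term of the shared test, with 1 residual degree of freedom, and without that term the test also called 0 markers. Leaving out a library would leave no residual degrees of freedom. Depth limits PROM1, ALDH1A1, SOX2 and, in SUM159, EPCAM, for which counting intervals are wide.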
